A study of Mus musculus with 3 samples.

Results

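Glypicans and heparanases were followed across the cell types of the mouse lumbar spinal cord in the SOD1G93A model of amyotrophic lateral sclerosis. The 8 genes, Gpc1 to Gpc6, Hpse and Hpse2, were taken by symbol from the 31040 genes of the table of unique molecular identifiers (UMIs), and all 8 were in it. They were chosen because Gpc5 was lower and Gpc3 higher in SOD1G93A astrocytes, so the astrocyte values of the genotype comparison are given below as a description, without a test.

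Glypicans are heparan sulfate proteoglycans that a lipid (GPI) anchor holds on the outer face of the cell membrane. Their heparan sulfate chains bind Wnt, FGF, Hedgehog and BMP ligands and adhesion partners at synapses, and Gpc4 and Gpc6 are known as glypicans released by astrocytes that act on excitatory synapses. Heparanase, the product of Hpse, cleaves heparan sulfate chains, whereas heparanase 2, the product of Hpse2, binds them without that activity.

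Single nuclei were sequenced from flash-frozen lumbar cord of 12 mice aged 90 days. There were 3 female and 3 male transgenic mice of the strain B6.Cg-Tg(SOD1G93A)1Gur/J and 3 female and 3 male C57BL/6J littermates (WT). The transgene is a high-copy mutant human SOD1 gene under its own promoter, active in many cell types, so no cell type is singled out by it. The mice were processed in 3 pools, A, B and C, each with 1 mouse of every sex and genotype told apart by a nuclear hashtag.

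The table held 14662 nuclei and 206486779 UMIs, with 548 to 2259 nuclei and 6411715 to 36668441 UMIs per mouse. Of the 10 cell types annotated by the authors, 8 had nuclei of all 12 mice, while ependymal cells came from 11 mice and fibroblasts from 10. Astrocytes numbered 1555 nuclei with a median of 5338 UMIs, against 12864.5 UMIs for neuronal nuclei. All 6 astrocyte markers were detected in every cell type, and their summed level was highest in astrocytes. The 15 barcodes found in more than 1 pool were kept as separate nuclei. Levels are UMIs of a gene per 1000000 UMIs of the cell type in a mouse (CPM), and because nuclei are summed, fewer expressing nuclei and less RNA per nucleus cannot be told apart in a CPM value.

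Gpc5 and Gpc6 are neighbours on chromosome 14 and are by far the longest of the genes. In the mm10 assembly Gpc5 spans chr14:115092215-116525179 (1433 kb, plus strand) and Gpc6 spans chr14:116925315-117976544 (1051 kb, plus strand), 400.1 kb apart. Gpc4 (chrX:52053021-52165252, 112 kb) and Gpc3 (chrX:52272426-52613950, 342 kb) lie on the minus strand of the X chromosome, 107 kb apart. Hpse2 covers 602 kb of chromosome 19 (chr19:42786539-43388355, minus strand). The short members are Hpse (chr5:100679484-100719716, 40.2 kb), Gpc1 (chr1:92831645-92860779, 29.1 kb) and Gpc2 (chr5:138273655-138280005, 6.35 kb).

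Introns were counted, and the longest genes held the most UMIs. Gpc5 held 344314 UMIs over all nuclei, 0.167% of the total, and Gpc6 held 164184. Gpc3 had 8046 UMIs, Hpse2 6064, Gpc1 3316 and Gpc4 2069. Hpse had 105 UMIs, 82 of them in neurons, and Gpc2 had 2 UMIs in all, 1 in an astrocyte and 1 in a microglial nucleus. These last 2 genes were too sparse for any comparison. Per 100 kb of gene, the astrocyte level was 523 CPM for Gpc5, 82.7 for Gpc6, 47.7 for Gpc1, 22.6 for Gpc4, 3.92 for Gpc3 and 2.87 for Hpse2, so Gpc5 led in astrocytes on this scale too. Annotated genes on the opposite strand overlap Gpc1 (1450 UMIs) and Gpc3 (2457 UMIs).

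Gpc5 was highest in astrocytes. Its level was 7490 CPM ± 2116 in astrocytes (SD, n = 12 mice), against 2012 ± 746 in oligodendrocyte precursors (OPCs), and the ranges of these neighbours over the mice did not overlap. Neurons (1477 ± 161) and microglia (1470 ± 321) followed, then oligodendrocytes (874 ± 410), Schwann and meningeal cells (815 ± 223), motor neurons (499 ± 483) and endothelial cells (193 ± 143). From OPCs downward, the ranges of neighbours in this order overlapped. Shares of nuclei at 2000 UMIs are expected values, the mean probability of at least 1 UMI when a nucleus is thinned to that depth. Nuclei with fewer than 2000 UMIs were left out, 76 of them in astrocytes. For Gpc5 this share was 93.7% of astrocyte nuclei, against 81.9% of OPC, 68.1% of microglial, 46.6% of neuronal, 30.1% of oligodendrocyte and 18.8% of endothelial nuclei. Several annotated classes held markers of other cells, and in microglia and in Schwann and meningeal cells these exceeded the markers of the class itself. In microglia neuron markers summed to 2237 CPM and oligodendrocyte markers to 2823 CPM, beside 80.9 CPM for microglia markers. In Schwann and meningeal cells oligodendrocyte markers summed to 5508 CPM, neuron markers to 4540 and astrocyte markers to 2032, beside 126 for Schwann cell markers and 25.8 for meningeal and fibroblast markers. The microglia and Schwann cell markers were nonetheless at their highest mean in the class named for them, whereas the meningeal and fibroblast markers were higher in fibroblasts (mean 1562 CPM), astrocytes (63.2 CPM) and endothelial cells (40.9 CPM). In OPCs oligodendrocyte markers summed to 2405 CPM and neuron markers to 1501, below the 3842 CPM of OPC markers. The part of free RNA or of mixed nuclei in the glypican levels of these types was not tested.

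Gpc6 was spread more evenly, and its highest mean was in fibroblasts. It reached 3620 CPM in the fibroblasts of 10 mice, with a range of 1228 to 9473 that overlapped the OPC range of 722 to 1275. OPCs (949 ± 162, n = 12), neurons (890 ± 71.9) and astrocytes (870 ± 120) differed by less than their SDs, and oligodendrocytes were lowest at 243 ± 94.5. At 2000 UMIs, 86.8% of fibroblast nuclei, 79.2% of OPC nuclei and 71.6% of astrocyte nuclei had a Gpc6 UMI. The ranges of all neighbours in the Gpc6 order of the 8 types with 12 mice overlapped. The class annotated as fibroblasts also held markers of other cells. Its meningeal and fibroblast markers summed to 518 CPM in WT and 2606 CPM in SOD1G93A mice, the latter with a highest value of 10852 in 1 mouse. Astrocyte markers summed to 1653 and 643 CPM and oligodendrocyte markers to 1672 and 677 CPM in WT and SOD1G93A mice, so in WT mice both were above the markers of the class itself. Their part in the fibroblast levels of Gpc6, Gpc3 and Gpc4 was not tested.

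Gpc3 and Gpc4 had their highest means in the class annotated as fibroblasts, from few UMIs and beside the markers of other cells given above, and differed among the neural cells. Gpc3 averaged 310 CPM in fibroblasts, from 62 UMIs in 10 mice with a range of 0 to 939 and a median of 288, then 53.8 ± 18.2 in endothelial cells and 46.7 ± 8.29 in neurons. Astrocytes came sixth of the 8 types with 12 mice at 13.4 ± 10.6, next to oligodendrocytes at 12.3 ± 5.02. At 2000 UMIs, 30.9% of fibroblast and 7.95% of neuronal nuclei held a Gpc3 UMI, against 1.06% of astrocyte and 1.21% of oligodendrocyte nuclei. Gpc4 was highest in astrocytes among those 8 types, at 25.4 ± 9.52 CPM, followed by endothelial cells (15.7 ± 10.3) and neurons (10.6 ± 3.06). Its fibroblast mean of 143 CPM rested on 13 UMIs, had a median over mice of 28.7 CPM and was set by 947 CPM in the SOD1G93A male of pool C, which had 1 fibroblast nucleus with 3 of these UMIs. Neighbouring ranges overlapped throughout for both genes.

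Gpc1 had its highest mean in the class annotated as Schwann and meningeal cells, where markers of other cells were high, and Hpse2 in neurons. Gpc1 averaged 64.2 CPM ± 36.3 in that class, 24.3 ± 23.3 in motor neurons and 16.7 ± 2.18 in neurons. Hpse2 averaged 39.8 ± 14.3 in neurons, 19.7 ± 25.0 in microglia and 17.3 ± 21.4 in astrocytes. Here too the ranges of neighbours overlapped.

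**Figure D1:**
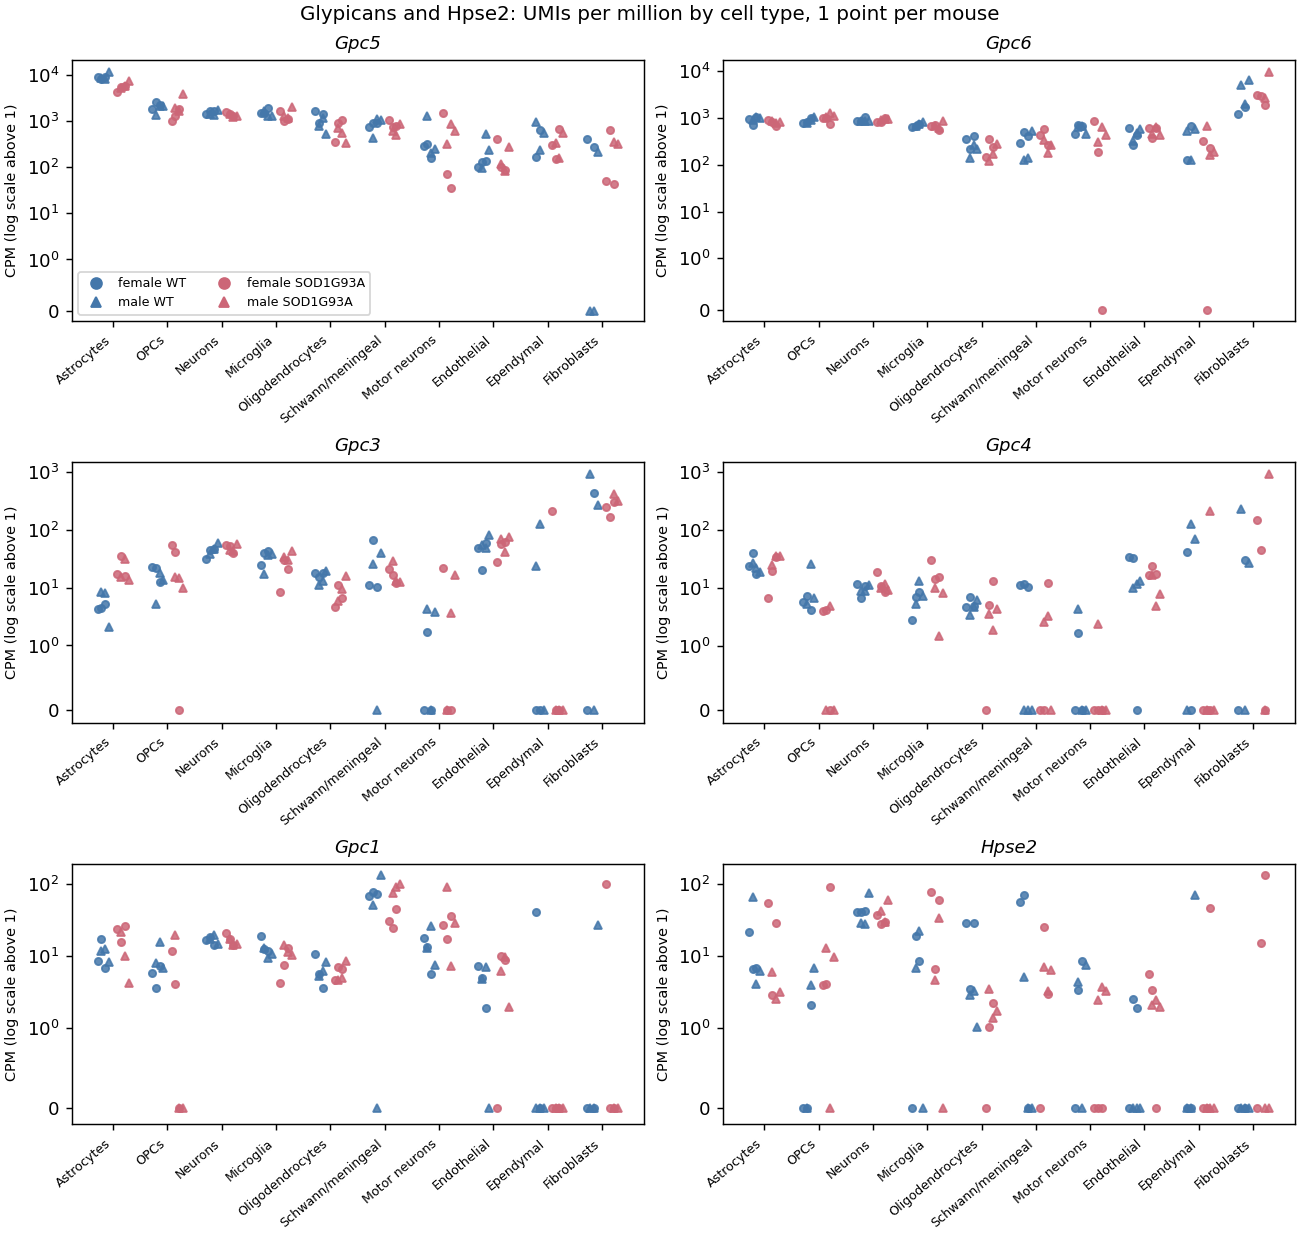
Level of 6 genes in 10 cell types as CPM on an axis that is logarithmic above 1, with 1 point per mouse (blue WT, red SOD1G93A, circles female, triangles male). Gpc5 is highest in astrocytes (mean 7490 CPM), Gpc6 in fibroblasts (mean 3620 CPM), Gpc1 in the class annotated as Schwann and meningeal cells (64.2 CPM, with oligodendrocyte markers at 5508 CPM) and Hpse2 in neurons (39.8 CPM).

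Within neurons, dorsal inhibitory neurons carried 4 of the genes at their highest mean level. Gpc5 averaged 3680 CPM ± 539 there, near the ventral mixed neurons (3602 ± 2347), and was lowest in dorsal excitatory neurons (521 ± 131). Gpc3 averaged 109 ± 21.2 in dorsal inhibitory and 102 ± 38.4 in mid inhibitory neurons, against 14.8 ± 7.57 in ventral excitatory neurons. Gpc4 averaged 44.5 ± 10.0 in dorsal inhibitory neurons, which held 941 of its 1436 neuronal UMIs, and the next sub-type, ventral cholinergic neurons, averaged 16.3 ± 18.6.

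Hpse2 had the same leading sub-type. Dorsal inhibitory neurons held 3002 of its 5484 neuronal UMIs, with 143 CPM ± 60.4, and ventral mixed neurons came next at 50.2 ± 99.7. Gpc6 had another order, with 1653 ± 402 in ventral mixed and 1513 ± 402 in ventral cholinergic neurons and its lowest level, 615 ± 90.1, in dorsal excitatory neurons. Gpc1 was flat, from 12.6 to 21.8 CPM over the 9 sub-types. For each of the 6 genes the ranges of neighbouring sub-types overlapped.

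Profiles were compared over 96 sums, 1 for each mouse in the 8 cell types with 12 mice. Only the 9347 genes with enough counts to be tested in astrocytes were candidates. Among them the most similar genes were Ntm (Pearson r = 0.920), Trpm3 (0.897) and Lgi1 (0.881) for Gpc5. For Gpc3 they were Ebf1 (0.792), Kirrel (0.787) and Baiap2 (0.785). For Hpse2 they were Celf2 (0.566), Necab1 (0.518) and Syt10 (0.517). The sums share libraries and depth, and the r values are descriptions.

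In astrocytes Gpc5 was lower in SOD1G93A than in WT mice. In WT mice it stood at 9154, 8372 and 9075 CPM in the females of pools A, B and C and at 8525, 8354 and 11788 CPM in the males. In SOD1G93A mice it stood at 4347, 5528 and 5993 CPM in the females and at 5386, 5903 and 7455 CPM in the males. Every SOD1G93A mouse was below every WT mouse, and the SOD1G93A mouse was the lower one in 6 of 6 pairs of the same sex and pool. The means were 9211 ± 1309 and 5769 ± 1014 (SD, n = 6 each), and the log2 fold change of the limma voom fit was -0.76 (SE 0.10).

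Given per nucleus, the same counts are a description that also depends on the mix of sub-clusters given below. The median Gpc5 count per 10000 UMIs of an astrocyte nucleus lay between 89.7 and 110 in the WT mice and between 36.7 and 76.4 in the SOD1G93A mice. The expected share of nuclei with a Gpc5 UMI at 2000 UMIs was 94.6% over 880 WT and 92.2% over 599 SOD1G93A astrocyte nuclei, which left out 47 and 29 shallower nuclei. For so abundant an RNA this share lies near its ceiling and does not measure the amount, and in endothelial nuclei it was 18.6% in WT and 19.0% in SOD1G93A mice. Unthinned, 1492 of the 1555 astrocyte nuclei had a Gpc5 UMI.

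Gpc3 was the rare member that was higher in SOD1G93A astrocytes, and it rested on few UMIs. The WT mice had 2, 4, 3, 12, 14 and 1 UMIs (females of pools A, B and C, then males) and the SOD1G93A mice 5, 25, 6, 18, 25 and 13. In CPM these were 2.06 to 8.44 in WT and 13.7 to 35.4 in SOD1G93A, without overlap. The means were 5.39 ± 2.44 and 21.4 ± 9.38 (n = 6 each) and the log2 fold change was 1.93 (SE 0.34).

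Gpc6 lay at 717 to 1034 CPM in WT and 666 to 906 in SOD1G93A mice, overlapping, with a log2 fold change of -0.29 (SE 0.12). Gpc1 (0.33, SE 0.31) and Gpc4 (-0.04, SE 0.26) differed by about their standard error or less. Hpse2 had a log2 fold change of -0.88 (SE 0.32), although its means of 18.3 ± 23.6 in WT and 16.2 ± 21.2 in SOD1G93A mice were close.

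Of the 8 members, 6 passed the filter on low counts in astrocytes, and the ranges of the genotypes were apart for Gpc5 and Gpc3. The filter asks for enough counts in at least 3 mice, and for Gpc3 only SOD1G93A mice reached that level. Gpc3 thus entered the fit through the group where it was higher, and its fold change and separate ranges are no evidence of a difference. Among all 9347 astrocyte genes the ranges were apart with SOD1G93A lower for 0.417% and higher for 0.899%. Both genes were chosen on this contrast, so nothing is read from the count. In the same astrocytes the summed astrocyte markers were 6362 to 8021 CPM in WT and 7645 to 9894 CPM in SOD1G93A mice, neuron markers 632 to 1066 and 700 to 1507 CPM, and oligodendrocyte markers 1090 to 1722 and 1578 to 3037 CPM.

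**Figure D2:**
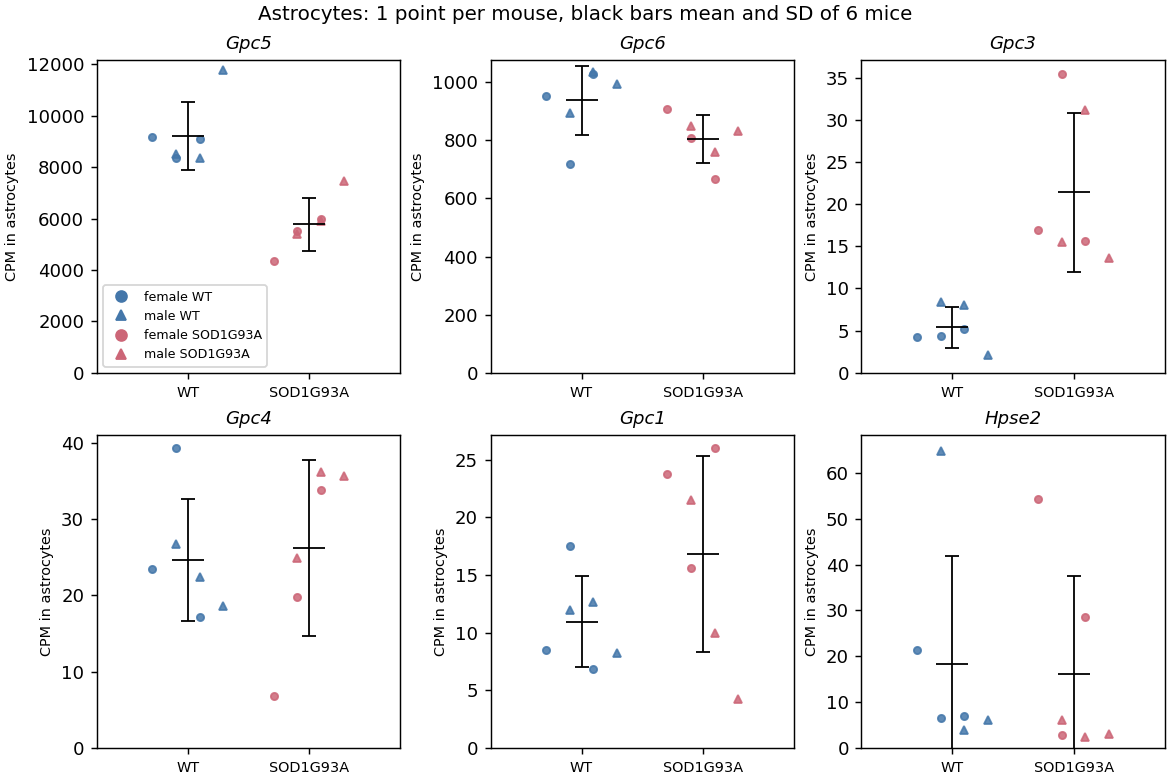
CPM in astrocytes for 6 genes with 1 point per mouse (circles female, triangles male) and black bars for the mean and SD of 6 mice, cut at 0 for Hpse2. The SOD1G93A points lie below all WT points for Gpc5 (means 5769 and 9211) and above them for Gpc3 (means 21.4 and 5.39), and overlap them for the other genes.

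Gpc5 differed widely among the 5 astrocyte sub-clusters annotated by the authors. Sub-cluster 1 had 13353 CPM ± 1716 (SD, n = 12), sub-cluster 0 had 8115 ± 995, sub-cluster 2 had 6020 ± 1962, sub-cluster 4 had 4412 ± 1533 and sub-cluster 3 had 1340 ± 394. The ranges of sub-clusters 1 and 0, and of 4 and 3, did not overlap. Sub-cluster 3 also had the highest Gfap, the intermediate filament that marks fibrous and reactive astrocytes, at 1279 CPM ± 253, and the highest Aqp4, the water channel of astrocyte endfeet, at 2123 ± 423. Sub-cluster 1, with the most Gpc5, had 103 ± 96.7 CPM of Gfap. The sub-clusters were built from expression in the same nuclei, so their order was not tested. Gpc6 did not follow this order, with 796 to 941 CPM in the 5 sub-clusters.

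Within sub-clusters the genotype difference of Gpc5 was smaller than over all astrocytes. The log2 fold change was -0.14 (SE 0.08) in sub-cluster 0, -0.23 (SE 0.08) in sub-cluster 1, -0.59 (SE 0.16) in sub-cluster 2 and -0.26 (SE 0.18) in sub-cluster 4. In sub-cluster 3, where the gene was lowest, it was 0.39 (SE 0.16), with 1178 ± 429 CPM in WT and 1503 ± 307 in SOD1G93A mice. The genotypes overlapped in all 5 sub-clusters.

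When the 5 sub-clusters were given equal weight in every mouse, an alternative added after the data had been seen, WT mice had 7254 ± 930 CPM (6534 to 8969) and SOD1G93A mice 6042 ± 582 (5488 to 6797). The log2 ratio of these means was -0.26, against -0.68 over all nuclei, and the ranges then overlapped, although the SOD1G93A mouse remained the lower one in 6 of 6 pairs. In the 220 astrocyte nuclei without any neuron marker UMI the log2 fold change was -0.41 (SE 0.10), with 8815 to 12462 CPM in WT and 6479 to 11729 CPM in SOD1G93A mice. Each sub-cluster held nuclei of every mouse, in some mice as few as 3. Equal weighting changes both the mix of sub-clusters and the weight of the genotype difference inside each. The move from -0.68 to -0.26 was not split between these. Sub-cluster 1, with the most Gpc5, held 345 of the 927 WT and 93 of the 628 SOD1G93A astrocyte nuclei, 26.9% to 42.6% of the nuclei of a WT mouse and 4.81% to 21.6% of those of a SOD1G93A mouse. Sub-cluster 3, with the least, held 88 and 107, or 7.56% to 12.0% and 13.4% to 31.1%. The ranges were apart for both sub-clusters. The genes that built the sub-clusters are not given in the sources used here, and since Gpc5 may be one of them, these shares are a description without a test.

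**Figure D3:**
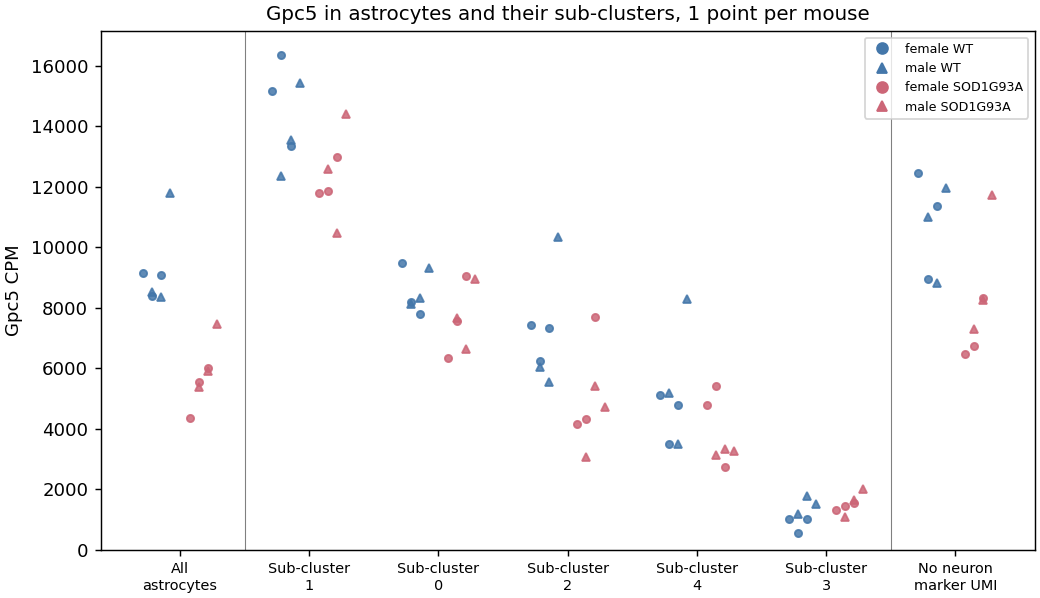
Gpc5 CPM in all astrocytes, in the 5 sub-clusters ordered by their mean, and in the 220 nuclei without a neuron marker UMI, with 1 point per mouse. The genotypes are apart over all astrocytes (8354 to 11788 in WT, 4347 to 7455 in SOD1G93A) and overlap inside each sub-cluster, while the sub-clusters run from 13353 to 1340 CPM.

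The Gpc3 UMIs of astrocytes came from a handful of nuclei. Only 50 of the 1555 nuclei held any, 22 WT nuclei with 36 UMIs and 28 SOD1G93A nuclei with 92 UMIs. In the female SOD1G93A mouse of pool B, 23 of the 25 UMIs lay in 1 nucleus of 80329 UMIs that also held 192 neuron marker UMIs. In the male SOD1G93A mouse of pool B, 18 of the 25 lay in 1 nucleus of 45753 UMIs with 97 neuron marker UMIs.

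These nuclei were among the deepest astrocyte nuclei. The 64 nuclei with over 15000 UMIs made up 4.12% of astrocyte nuclei and 17.2% of their UMIs but held 58.6% of the Gpc3 UMIs. Sub-cluster 2, with 14.1% of the nuclei and the lowest level of the astrocyte glutamate transporter Slc1a2 (2705 CPM ± 638), held 63.3%. It also had the highest neuron markers of the 5 sub-clusters, 1968 CPM against 360 to 1479 in the others. The 220 nuclei without a neuron marker UMI held 1 of the 128 Gpc3 UMIs, beside 943 of the 8739 Gpc6 UMIs. A nucleus of low depth is also more likely to have no marker UMI, so depth and neuronal RNA cannot be told apart in this count.

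Without the top nucleus of every mouse, an alternative added after the data had been seen, Gpc3 stood at 2.63 ± 2.35 CPM in WT and 7.70 ± 5.01 in SOD1G93A mice. Both ranges then began at 0, and the SOD1G93A mouse was higher in 5 of 6 pairs. In nuclei of at most 15000 UMIs, also added later, the genotypes had 19 and 34 UMIs, 0 to 5.56 and 0 to 15.3 CPM, and 4 of 6 pairs were higher. Without the 53 astrocyte nuclei whose neuron markers reached the median level of neurons, added later as well, the log2 fold change was 2.06 (SE 0.39) and the ranges of 2.21 to 5.92 and 6.55 to 35.5 CPM stayed apart. This limit of 3301 CPM did not remove the leading Gpc3 nuclei of the SOD1G93A mice of pool B. Their neuron markers stood at 2390 CPM (female) and 2120 CPM (male), and both mice kept all 25 Gpc3 UMIs. The neuron average of Gpc3 was 46.7 CPM, above both astrocyte groups. The part of neuronal RNA in the astrocyte counts of Gpc3 was not tested beyond these values.

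Hpse2 in astrocytes was even more concentrated. The WT mice had 10, 6, 4, 92, 7 and 3 UMIs and the SOD1G93A mice 16, 2, 11, 7, 2 and 3, in the order used for Gpc3. Of the 92 UMIs of the male WT mouse of pool A, 89 lay in 1 nucleus of sub-cluster 2. That nucleus had 32993 UMIs, 114 neuron marker UMIs (3455 CPM, against a median of 3301 CPM in neurons), 53 astrocyte marker UMIs and 279 Gpc5 UMIs. In the female SOD1G93A mice of pools A and C, 14 of 16 and 8 of 11 Hpse2 UMIs again lay in 1 nucleus each. Without the top nucleus of every mouse the genotypes had 19 and 13 UMIs, at 4.29 ± 3.28 and 3.93 ± 3.00 CPM. The log2 ratio of the genotype means, -0.17 over all nuclei, turned to 0.35 without nuclei over 15000 UMIs and to 1.00 without the 53 nuclei rich in neuron markers, both chosen after the data had been seen. It was -0.13 without the top nucleus of every mouse and -1.67 with the sub-clusters weighted equally, where WT mice had 42.6 ± 83.3 and SOD1G93A mice 13.4 ± 17.6 CPM. The leading nucleus of the SOD1G93A female of pool A, with 3276 CPM of neuron markers, was not among the 53 removed.

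**Figure D4:**
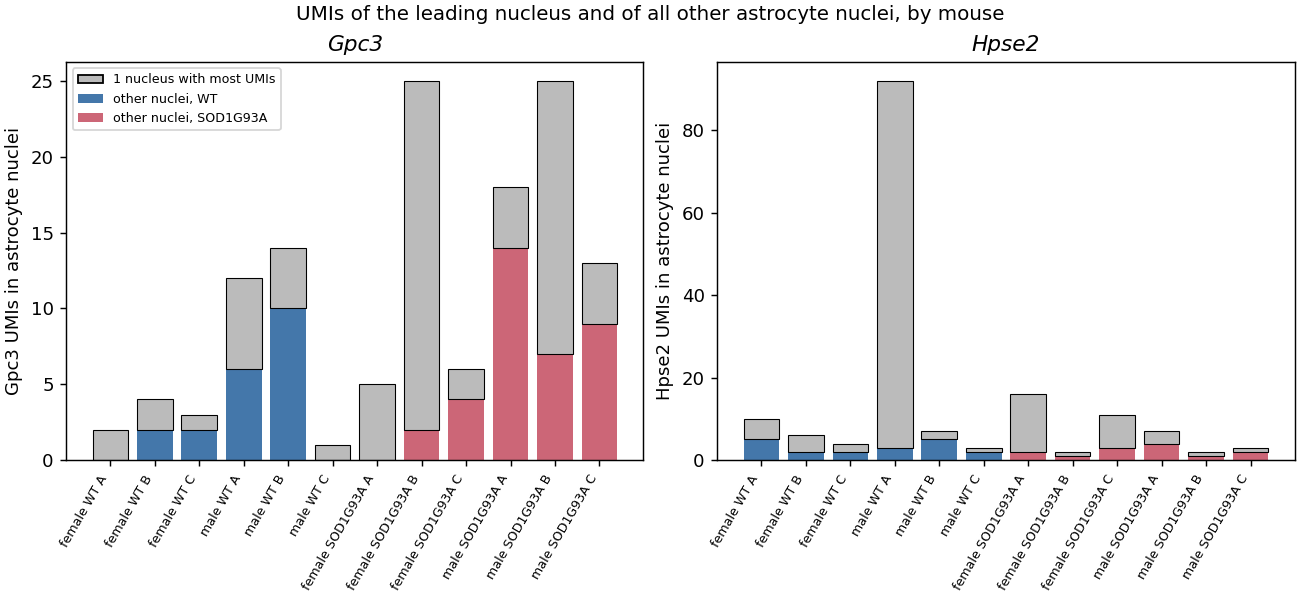
UMIs of Gpc3 and Hpse2 in the astrocytes of each mouse, split into the 1 nucleus with the most UMIs of the gene (grey) and all other nuclei (blue WT, red SOD1G93A). The grey part is 89 of 92 Hpse2 UMIs in the male WT mouse of pool A and 23 of 25 and 18 of 25 Gpc3 UMIs in the female and male SOD1G93A mice of pool B.

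The same nucleus bears on the one genotype by sex difference among the members. For Hpse2 in astrocytes the genotype effect in males minus that in females was -3.72 on the log2 scale (SE 0.64, limma FDR = 0.0559), from -2.74 (SE 0.44) in males and 0.98 (SE 0.47) in females. It was 1 of 35 member tests over the 10 cell types that passed an FDR of 0.1, beside 0.0058% of all tests over those types and 0.0107% of the astrocyte tests, and 4 of the 35 had an unadjusted p under 0.05. This value was known when the members were chosen and is no independent evidence.

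The call was lost with edgeR (FDR = 1.00) and DESeq2 (FDR = 1.00), without the pool term (-1.91, FDR = 1.00) and without the robust option of the fit (FDR = 0.179). It was also lost on leaving out any of 6 mice, among them the WT male of pool A. Hpse2 no longer passed the filter on low counts once that mouse's leading nucleus and those of the other 11 mice were removed, or once nuclei over 15000 UMIs or with neuron markers at the neuronal median were removed, 3 alternatives added after the data had been seen.

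Outside astrocytes, where the contrast did not choose the members although the mice and libraries are the same, no member passed. In the 9 other cell types 0 of 29 member tests had a limma FDR under 0.1, beside 0.298% of all tests there, and 1 had an unadjusted p under 0.05. In the 9 neuron sub-types it was 0 of 39, beside 0.0252%, with 4 at an unadjusted p under 0.05. In the 5 oligodendrocyte sub-clusters it was 0 of 11, beside 0.055%, with 3 at an unadjusted p under 0.05. edgeR and DESeq2 gave no call either.

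The log2 fold change of Gpc5 was below 0 in 7 of the 9 neuron sub-types. In the 8 cell types tested other than astrocytes it ran from -0.76 to 0.20 and was below 0 in 7. In the 8800 neuronal nuclei it was -0.16 (95% interval -0.34 to 0.01, limma FDR = 1.00), with 1364 to 1745 CPM in WT and 1269 to 1605 in SOD1G93A mice. In oligodendrocytes it was -0.76 (-1.54 to 0.02, FDR = 1.00), a value over all sub-clusters that is set beside those of each sub-cluster further on. Whether the genotype effect on Gpc5 differed between astrocytes and these cells was not tested.

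Gpc3 had no single direction outside astrocytes. In neurons it lay at 44.8 ± 9.56 CPM in WT and 48.7 ± 7.13 in SOD1G93A mice, overlapping. In oligodendrocytes it was lower in 6 of 6 pairs, with a log2 fold change of -0.69 (-1.27 to -0.11, FDR = 1.00) that did not pass. That value too is over unequal mixtures of sub-clusters, and the part of the mixture in it was not tested. Sub-cluster 3, described below, held 28 of the 160 WT Gpc3 UMIs in 101 nuclei. It held 0 of the 67 SOD1G93A UMIs in 31 nuclei. Its mean was 5.92 CPM ± 14.1, against 12.3 ± 5.02 over all oligodendrocytes. In sub-cluster 2, with 157 of the 227 Gpc3 UMIs, the means were 27.1 ± 9.46 and 20.7 ± 4.93 CPM, lower in 5 of 6 pairs, with a log2 fold change of -0.37 (-1.06 to 0.32, FDR = 1.00). In ventral excitatory neurons the difference had the other sign, with 7.95 to 12.8 CPM in WT and 1.71 to 27.0 CPM in SOD1G93A mice. The SOD1G93A mouse was higher in 4 of 6 pairs there, with a log2 fold change of 0.74 (0.09 to 1.38, FDR = 1.00) that did not pass either.

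The lowest unadjusted p values among neurons belonged to ventral inhibitory neurons. Gpc5 there lay between 324 and 613 CPM in WT and between 605 and 956 in SOD1G93A mice, higher in 6 of 6 pairs, with a log2 fold change of 0.48 (0.21 to 0.75, limma FDR = 0.703). Gpc6 lay between 671 and 974.6 and between 778 and 1691 CPM, with 0.36 (0.14 to 0.57, FDR = 0.782). Neither passed over all genes, and Gpc5 passed without the filter on low counts (0.43, FDR = 0.0824) and with the pool B male of the WT group left out (0.60, FDR = 0.0901). Dorsal inhibitory neurons, which lead in Gpc5, had -0.22 (-0.39 to -0.05, FDR = 1.00).

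Oligodendrocytes held a sub-cluster with an astrocyte-like Gpc5 level. Sub-cluster 3, with 132 nuclei, had 5192 CPM ± 1453 of Gpc5 against 200 to 707 in the other 4, and its range did not overlap that of the next one. It also had 3446 CPM of astrocyte markers, against 274 to 522 in the others, and 4531 CPM of oligodendrocyte markers, against 6151 to 9210. The share of mixed nuclei in it was not tested. These 132 nuclei held 9392 of the 16145 Gpc5 UMIs of oligodendrocytes, so their number in a mouse moves the level over all oligodendrocytes. They were 101 of the 1200 WT and 31 of the 965 SOD1G93A oligodendrocyte nuclei, 3.80% to 13.1% of the nuclei of a WT mouse and 0.633% to 9.09% of those of a SOD1G93A mouse, so the value of -0.76 over all oligodendrocytes compares different mixtures of sub-clusters. Within sub-clusters Gpc5 had log2 fold changes of -0.25 to 0.13 in sub-clusters 0 to 3 and -1.75 in sub-cluster 4, which had 53 nuclei.

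**Figure D5:**
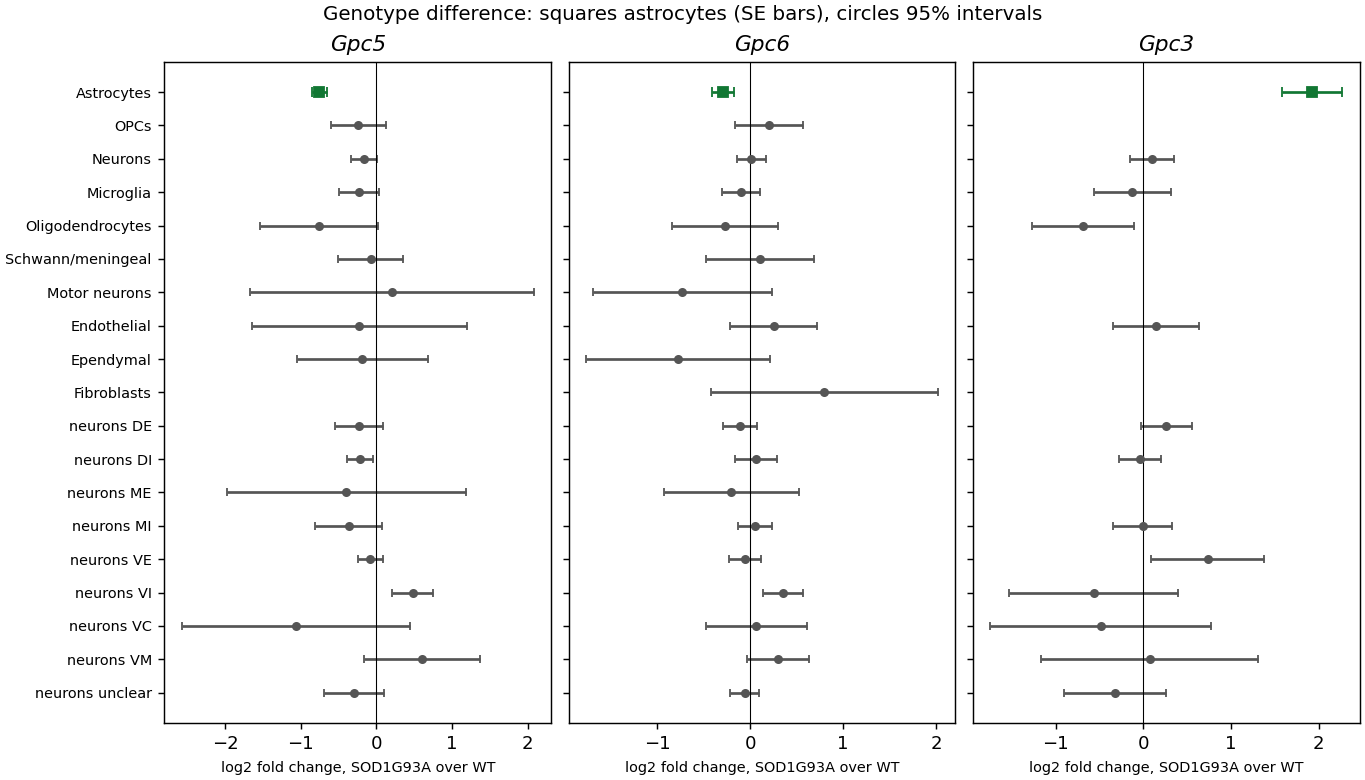
Log2 fold change of SOD1G93A over WT for Gpc5, Gpc6 and Gpc3 in each cell type and neuron sub-type (DE, DI dorsal, ME, MI mid and VE, VI ventral excitatory and inhibitory, VC ventral cholinergic, VM ventral mixed) where the gene passed the filter. Green squares give astrocytes with the SE and no test (-0.76, -0.29 and 1.93), and grey circles give the other cells with 95% intervals, none past an FDR of 0.1.

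No member was called for sex. Averaged over genotypes, 0 of 35 member tests over the 10 cell types passed a limma FDR of 0.1, beside 0.159% of all tests, and 3 had an unadjusted p under 0.05. Gpc5 in astrocytes was lower in females by -0.20 on the log2 scale (-0.39 to 0.00, FDR = 0.904). Its genotype effect differed between males and females by 0.14 (-0.25 to 0.54, FDR = 1.00).

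The enzymes that build and edit heparan sulfate chains were examined next, since glypicans act in part through the chains they carry. In astrocytes 29 of 32 genes of this list were tested, and 2 passed a limma FDR of 0.1 for genotype, beside 2.29% of all astrocyte genes. Sulf1, an extracellular sulfatase that removes 6-O-sulfate groups from heparan sulfate, rose by a log2 fold change of 0.67 (SE 0.19, limma FDR = 0.0990). Extl1, an exostosin-like glycosyltransferase, fell by 0.65 on the log2 scale (SE 0.18, FDR = 0.0804). The median log2 fold change of the list was 0.16, against 0.02 over all astrocyte genes, and 19 of the 29 were positive.

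Both calls depended on the settings. Sulf1 lost its call in all 5 alternative fits that gave it an adjusted p, with an FDR of 0.147 with edgeR, 0.108 with TMM factors, 0.128 with low counts kept in, 0.242 without the pool block and 0.117 without the robust option. It passed on leaving out the pool A mouse of the WT females, WT males or SOD1G93A females. It failed on leaving out any of the other 9 mice. Over all 12 of these fits the log2 fold change ran from 0.42 to 0.79.

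Extl1 kept its call with edgeR, with TMM factors and without the robust option, and lost it without the filter (FDR = 0.158) and without the pool block (FDR = 0.131). It was also lost on leaving out any of 7 mice (-0.80 to -0.58 over the 12), which were the WT females of pools A and C, the WT males of pools B and C, the SOD1G93A female of pool C and the SOD1G93A males of pools A and C. DESeq2 gave no adjusted p for either gene. It called Ndst3 (-0.41, FDR = 0.0905) and Ext1 (-0.43, FDR = 0.0962), a sulfotransferase and a chain polymerase of the same pathway, chosen for mention after their values were seen.

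The other groups had no call in astrocytes. Of the other heparan sulfate proteoglycans, such as syndecans, 9 of 12 were tested (median 0.17, 6 positive). Of the genes for glypican cleavage and release 3 of 5 were tested (median -0.10, 1 positive), and of the binding partners of glypicans and heparan sulfate 21 of 23 (median -0.05, 8 positive). Over all genes tested 52.3% were positive.

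Motor neurons had 67 nuclei, 44 in WT and 23 in SOD1G93A mice, with 2, 4 and 1 in the SOD1G93A females of pools A, B and C. Values of such mice rest on very few nuclei. In this type 15 of the 32 synthesis genes and 15 of the 23 binding partners were tested, beside a background of 3.07% of 5118 genes called. Ndst4, which removes acetyl groups from and adds sulfate to the chain, fell by 0.81 (SE 0.19, limma FDR = 0.0467) on the log2 scale. Lrrtm3, a postsynaptic adhesion protein of a family that binds heparan sulfate, fell by 0.65 (SE 0.17, FDR = 0.0648). Without the pool block neither passed (FDR = 0.133 for Ndst4 and 0.106 for Lrrtm3), and Lrrtm3 did not pass with edgeR (FDR = 0.129). Ndst4 was lost without the WT female of pool A, the SOD1G93A female of pool B or the SOD1G93A male of pool C, and Lrrtm3 without any of 6 mice, the WT females of pools A and C, the WT male of pool C, the SOD1G93A female of pool C and the SOD1G93A males of pools A and C. No gene of the 4 lists was called for genotype in another cell type, in a neuron sub-type or in a sub-cluster of astrocytes or oligodendrocytes.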

How the data were processed

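Nuclei of 12 mice were profiled in 3 pools on the 10x platform, and hashtags tied nuclei to mice. Per the labels the authors used bcl2fastq 2.20.0.422, Cell Ranger 3.1 with STAR 2.5.1b, Seurat 4.0.3 and R 4.0.3, with the mm10 build and introns counted. The deposited UMI counts per gene and nucleus were used as they stand. The authors had removed nuclei with several hashtags or none, with few genes or with high mitochondrial share, and no doublet caller was run here. Cell types and sub-clusters are the authors' annotation, and the deposited integrated table was not used.

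UMI counts were summed per mouse and cell type and fitted with limma 3.58.1 voom in R 4.3.3 (edgeR 4.0.16 filter with a minimum count of 10, TMMwsp factors, sex by genotype groups, a pool term, robust moderation), with Benjamini-Hochberg FDR over all genes of the type and a threshold of 0.1. edgeR and DESeq2 1.42.0 were alternatives. The fits were checked on simulated counts. The depth of 6411715 to 36668441 UMIs per mouse limits precision for sparse genes.

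Pools hold 1 mouse of each sex and genotype by design. Over astrocyte genes the deviations of mice of the same pool correlated at a median r of 0.03 (18 pairs, -0.09 to 0.33), and those of different pools at -0.01 (36 pairs, -0.30 to 0.23).

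The members and gene lists were chosen with earlier results of these data known. Genes were named by rule: the members in every type, up to 3 genes in each direction of smallest FDR under 0.1 for genotype per list and type, and the 3 genes with the highest Pearson r to Gpc3, Gpc5 and Hpse2 on log2(CPM + 1). The candidates for r were the genes tested in astrocytes. Shares of nuclei were computed at 2000 UMIs as a mean probability over the nuclei with at least that depth. Mice are separate animals, so p-values reflect variation between animals together with the sampling of nuclei within each mouse. The latter weighs more where a mouse had few nuclei, such as 1 motor neuron nucleus in the SOD1G93A female of pool C.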

Additional observations from a re-analysis of the deposited data

Results flagged for a closer look

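Among 64 sets of 6 mice of one genotype, 9 had 1 mouse far from the other 5 by Dixon's test, which flags about 5% of sets by chance. Gpc5 in astrocytes was 11788 CPM in the male WT mouse of pool C, against 8354 to 9154 in the other WT mice. Hpse2 in astrocytes was 64.7 CPM in the male WT mouse of pool A, against 4.01 to 21.3. Gpc5 was 524 CPM in the endothelial cells of the male WT mouse of pool B, against 95.2 to 239, and 1312 CPM in the motor neurons of the male WT mouse of pool A, against 162 to 328. In OPCs Gpc5 was 3902 CPM in the male SOD1G93A mouse of pool C, against 1003 to 1967 in the other SOD1G93A mice.

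In microglia Gpc1 was 19.1 CPM in the female WT mouse of pool A, against 9.33 to 12.8. In neurons Gpc4 was 19.1 CPM in the female SOD1G93A mouse of pool A, against 8.52 to 11.6, Gpc6 was 1024 CPM in the female WT mouse of pool C, against 833 to 864, and Hpse2 was 74.4 CPM in the male WT mouse of pool C, against 27.5 to 41.9. The genotype effect on Hpse2 in astrocytes also differed between the sexes, by -3.72 on the log2 scale (male minus female).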

How the results depend on the processing

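In astrocytes the direction of Gpc5, Gpc3, Gpc6 and Hpse2 was kept under every alternative fit in which they passed the filter. Gpc5 and Gpc3 were chosen on this contrast, so their kept direction is no independent evidence. Gpc3 did not pass the filter without nuclei over 15000 UMIs, where the genotypes had 19 and 34 UMIs. In the nuclei without a neuron marker UMI neither Gpc3 (1 UMI) nor Hpse2 (2 UMIs) passed. The fit without the 53 nuclei rich in neuron markers kept the leading Gpc3 nuclei of the SOD1G93A mice of pool B. Hpse2 did not pass the filter without nuclei over 15000 UMIs or without the 53 nuclei rich in neuron markers. Its log2 ratio of means there was 0.35 and 1.00, against -0.17 over all nuclei. Leaving out each mouse in turn gave -0.83 to -0.70 for Gpc5, 1.58 to 2.15 for Gpc3, -0.41 to -0.20 for Gpc6 and -1.23 to -0.34 for Hpse2. Gpc1 (-0.09 to 0.61) and Gpc4 (-0.22 to 0.15) changed sign in some of these. Gpc5 moved by more than the spread between mice in nuclei without a neuron marker UMI (-0.41) and with sub-clusters weighted equally (-0.26, chosen after seeing the data). Outside astrocytes the main count of 0 members called became 3 without the filter on low counts, where Gpc6 was called in oligodendrocyte sub-clusters 1 (1.14) and 3 (-1.51) beside Gpc5 in ventral inhibitory neurons, and 0 to 1 on leaving out a mouse: Hpse2 in dorsal inhibitory neurons (-0.68) without the WT female of pool C, Gpc5 in ventral inhibitory neurons (0.60) without the WT male of pool B, Gpc6 in motor neurons (-1.40) without the SOD1G93A female of pool A, Hpse2 in microglia (2.49) without that of pool B, and Gpc1 in motor neurons (1.28) without the SOD1G93A male of pool B. Without the pool A female, SOD1G93A female motor neurons were 4 nuclei in pool B and 1, without Gpc6 UMIs, in pool C. In microglia of the SOD1G93A female of pool C, 1 nucleus held 23 of 23 Hpse2 UMIs. In those of the SOD1G93A female of pool A, 1 nucleus held 14 of 18. For sex the count was 0 to 1, with Gpc3 in OPCs (1.49) without the WT male of pool B and Gpc6 in Schwann and meningeal cells (1.18) without that of pool C. The single genotype by sex call became 0 with edgeR, with DESeq2, without the robust option, without the pool as replicate block, and under the 3 added choices of nuclei, and 0 to 1 on leaving out a mouse (-4.19 to -2.51). The 2 calls of the pathway lists became 1 with edgeR, with TMM factors and without the robust option, 0 without the filter and without the replicate block, and 0 to 3 on leaving out a mouse. The pairing by pool changed neither the count for genotype outside astrocytes nor that for sex. In motor neurons both Ndst4 and Lrrtm3 lost their call without it. The causes were not tested. Depth limits Gpc2 and Hpse, with 2 and 105 UMIs.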
